A study of Mus musculus with 10 samples.

Results

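The 10 genes described here encode apolipoproteins that the mouse liver releases into blood: Apoa1, Apoa2, Apoa4, Apoa5, Apob, Apoc1, Apoc3, Apoe, Apoh and Apom. They were taken by symbol from a table of 59408 gene models, and all 10 passed the filter on low values that left 18390 models for testing. Expression was measured by bulk RNA sequencing of whole liver from wild-type C57BL/6 mice in 3 groups, every liver collected at day 35. The PBC group (mice 7, 8 and 9) carried a model of autoimmune primary biliary cholangitis: 100 µg of 2-octynoic acid coupled to bovine serum albumin was given intraperitoneally at day 0 in complete Freund's adjuvant, and again at days 14 and 28 in incomplete adjuvant. These mice also received 2 µg of the NKT cell activator α-galactosylceramide, a glycolipid, intravenously with the first 2 antigen doses. The PSC group (mice 11, 13 and 14) carried a non-autoimmune model of primary sclerosing cholangitis: chow held 0.089% of the bile duct toxicant DDC (3,5-diethoxycarbonyl-1,4-dihydrocollidine) for 2 weeks, was free of it for 1 week, and held it for 1 week more. The 4 control mice were untreated, so no group received adjuvant or glycolipid without the antigen. The sources used here do not give sex, age or feeding state.

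Apolipoproteins form the protein coat of lipoproteins, the particles that carry triglyceride and cholesterol through blood. Hepatocytes build very low density lipoprotein around apolipoprotein B, and build high density lipoprotein (HDL) from apolipoproteins A-I and A-II, which take up lipid through the transporter ABCA1. Smaller exchangeable members (the C group, A-V and E) move between particles, where they set how fast lipases strip the triglyceride and how fast receptors clear the remnant.

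Values are the authors' DESeq2-normalised reads per gene model, given in units of 1000 (k, kilo) or of 1000 k (M, mega), and were not divided by transcript length unless that is said. A change is the difference in mean log2(normalised reads + 1), with its standard error (SE) and 95% interval. A gene was called changed at an adjusted p below 0.05 from limma, fitted to all 10 libraries and adjusted over all 18390 models. The libraries held 38.3 to 95.4 M reads, and 1 read was worth 0.938 to 2.55 normalised reads. Mitochondrial models took 13.7% of the reads in control 2 and at most 8.67% elsewhere. Markers of hepatocytes, the labelled tissue's main cell, were abundant: the 9 markers together held 11.2 to 15.5 M normalised reads in PBC, 7.68 to 9.11 M in PSC and 9.04 to 10.8 M in control. Albumin alone took 5.91% to 7.85% of reads in PBC, 3.50% to 3.81% in PSC and 4.35% to 7.88% in control. In whole liver, fewer cells of a type and less RNA per cell cannot be told apart.

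The genes Apoa1, Apoc3, Apoa4 and Apoa5 lie side by side within 43.3 kilobases of chromosome 9 (mm10, 46228630 to 46271921). Apoa1 (GSMG0039475, 46228630 to 46230469), Apoa4 (GSMG0039476, 46240844 to 46243458) and Apoa5 (GSMG0039477, 46268605 to 46271921) are on the plus strand, with 4, 3 and 4 exons in the transcript used for length. Apoc3 (GSMG0040699, 46233050 to 46235636) is on the minus strand and has 4 exons. Apoc1 (GSMG0035594, 19689480 to 19692659) and Apoe (GSMG0035595, 19696109 to 19699188) form a pair on the minus strand of chromosome 7. The remaining genes stand alone, Apoa2 on chromosome 1 (GSMG0001039, 171221564 to 171226379), Apoh on chromosome 11 (GSMG0006051, 108395293 to 108414395), Apob on chromosome 12 (GSMG0050865, 7977648 to 8016838) and Apom on chromosome 17 (GSMG0017456, 35128998 to 35131798). Apob is the giant of the set, with 29 exons and a transcript of 13934 bases, against 518 to 2515 bases for the other 9 genes.

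Because Apoa4 was called changed and its neighbours on chromosome 9 were not, the 250 bases before the start of its 3 plus-strand genes are shown, 5′ to 3′, from the RefSeq promoter table (GRCm38.p6, the files' mm10 build), which held an entry for 8 of the 10 genes. They are chr9:46240594-46240843 for Apoa4, chr9:46228380-46228629 for Apoa1 and chr9:46268358-46268607 for Apoa5, all on the plus strand. Capitals mark every match to 6 motifs, searched on both strands.
Apoa4: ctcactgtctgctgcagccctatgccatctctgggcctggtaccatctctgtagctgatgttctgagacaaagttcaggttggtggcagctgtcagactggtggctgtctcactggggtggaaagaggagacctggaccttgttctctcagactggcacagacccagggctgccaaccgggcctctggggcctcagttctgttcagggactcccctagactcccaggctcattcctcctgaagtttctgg
Apoa1: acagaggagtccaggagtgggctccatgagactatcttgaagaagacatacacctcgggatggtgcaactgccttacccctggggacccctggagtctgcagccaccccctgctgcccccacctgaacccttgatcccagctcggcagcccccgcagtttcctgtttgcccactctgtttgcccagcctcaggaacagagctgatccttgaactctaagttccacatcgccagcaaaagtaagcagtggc
Apoa5: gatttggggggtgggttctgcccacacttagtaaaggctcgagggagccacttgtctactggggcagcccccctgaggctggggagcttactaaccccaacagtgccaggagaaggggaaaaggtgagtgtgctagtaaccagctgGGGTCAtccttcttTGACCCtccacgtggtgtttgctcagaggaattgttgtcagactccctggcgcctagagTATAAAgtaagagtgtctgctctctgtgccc
The motifs were the TATA box TATAAA (in 12.4% of 32851 promoter windows of this length), the binding element of the liver nuclear receptor HNF4 written as CAAAGTCCA (0.384%), the nuclear receptor half-sites AGGTCA (14.0%) and GGGTCA (11.6%), the cyclic AMP response half-element TGACGT (6.47%) and the GC box GGGCGG (32.7%). No 2 motifs share all letters, and a TATA box can overlap its own reverse complement. The windows of Apoa4 and Apoa1 held none of them. That of Apoa5 held a TATA box beginning 31 bases before the start and a facing pair of GGGTCA half-sites, on opposite strands, beginning 104 and 90 bases before it. Apoa5 has a second entry, chr9:46268383-46268632, not shown. From its start the same TATA box begins 56 bases before, and the half-sites 129 and 115 bases before. A match describes the letters only, and no match says only that these letters are absent from this window.

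The apolipoprotein genes were among the most abundant messages of these livers. By mean normalised reads over the 10 libraries, Apoe ranked 4, Apoa1 6, Apoc1 9 and Apoa2 10 among all models of the table, with Apoc3 at 30, Apoh at 49 and Apoa5 at 61. Apom ranked 223, Apoa4 229 and Apob 796. Together the 10 genes took 7.17% ± 1.20 of all reads in PBC (SD, n = 3), 7.97% ± 1.06 in PSC (n = 3) and 7.33% ± 0.98 in control (n = 4). These group shares differed by less than the spread between mice.

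Compared per kilobase of transcript, as levels of different genes must be, Apoc1 and Apoa2 led with means of 2149 and 2084.5 k normalised reads per kilobase over the 10 libraries. Apoc1 exceeded Apoa2 in 5 of 10 libraries, so their order is not set, while Apoa2 exceeded Apoe in 9 of 10. Apoe (1626 k) exceeded Apoa1 (1556 k) in 6 of 10 libraries, and these too did not differ beyond their spread. Apoc3 (728 k) and Apoh (174 k) each stood below the gene above it in all 10 libraries. Apoa5 (66.6 k) exceeded Apom (50.1 k) in 7 of 10 libraries, and Apom exceeded Apoa4 (27.7 k) in 8 of 10. In PSC the means of the latter 2 genes had the other order, 55.2 k for Apoa4 and 40.3 k for Apom. Apob was lowest at 1.08 k per kilobase, 25.7 times below Apoa4 by the mean of all livers and below it in all 10 libraries. That ratio differed by group. Apoa4 averaged 10.8 k per kilobase in PBC, 55.2 k in PSC and 19.9 k in control, and Apob 1.39, 0.891 and 0.986 k. The Apob transcript of 13934 bases is also by far the longest, and the balance of short and long transcripts differed between libraries. The size of its distance from the shorter genes is therefore uncertain.

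**Figure D1:**
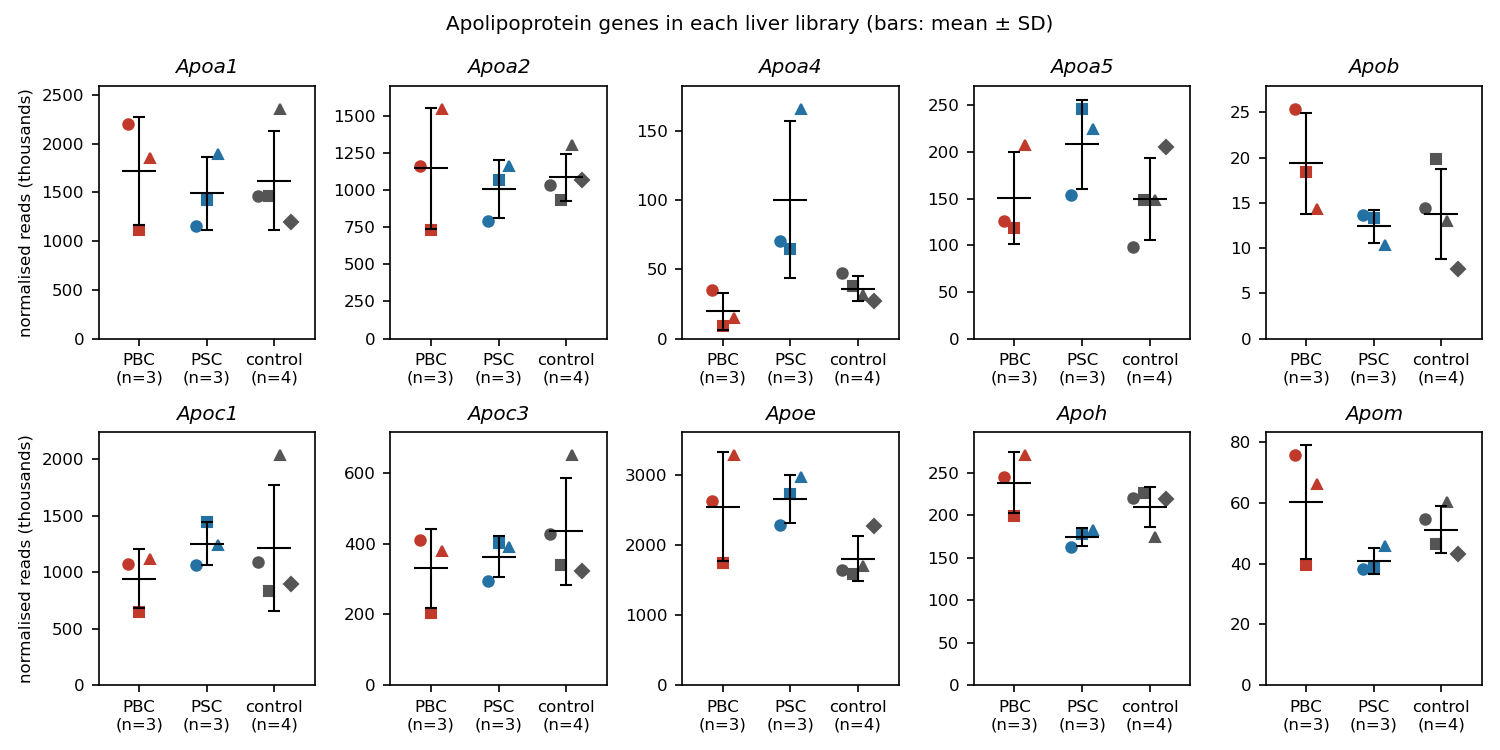
Normalised reads (k, linear axes from 0) of the 10 apolipoprotein genes, with 1 point per liver and a bar at the mean with ± SD, in PBC (n = 3), PSC (n = 3) and control (n = 4). Apoa4 shows the widest separation, with all 3 PSC livers at 64.7 k or more and all PBC and control livers at 47.5 k or less.

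Apoa4 encodes apolipoprotein A-IV, a protein of chylomicrons and HDL that in mice is made by both intestine and liver. Its message was higher in PSC livers than in both other groups. Apoa4 had 34.9, 9.33 and 14.6 k normalised reads in PBC 7, 8 and 9. It had 70.3, 64.7 and 166 k in PSC 11, 13 and 14, and 47.5, 38.2, 31.4 and 27.1 k in controls 1 to 4. All 3 PSC livers thus lay above every PBC and control liver, with PSC 14 highest by far. PBC 8 and PBC 9 lay below all controls, while PBC 7 lay inside the control range.

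Set against control, Apoa4 rose in PSC by 1.37 on the log2 scale (SE 0.42, 95% interval 0.47 to 2.26, adjusted p = 0.0427, limma), or 2.58-fold. It was the 1 gene of the 10 called in that comparison, in which 14.7% of all models tested were called, 8.25% higher and 6.48% lower. The call was near its threshold. It was lost when any 1 of controls 1 to 4, PBC 9, PSC 11, PSC 13 or PSC 14 was left out (adjusted p from 0.0510 to 0.219), and remained without PBC 7 or PBC 8. The change without PSC 14 was 0.94 (adjusted p = 0.219). The call was also lost with a pseudocount of 0.1 (adjusted p = 0.0515), with no filter (0.0595) and with the transcript length trend removed (0.0530), and held in the other 9 alternatives, edgeR (0.0357) and DESeq2 (0.00568) among them.

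Set against PSC, Apoa4 in PBC fell by 2.44 on the log2 scale (SE 0.44, adjusted p = 0.0121, limma), which made it 5.41-fold lower (95% interval 2.79 to 10.5). It was again the 1 gene of the 10 called, in a comparison where 2.24% of all models were called, 1.11% higher and 1.13% lower in PBC. That split, 204 models higher and 208 lower, was 128 and 227 with libraries scaled to equal totals. The Apoa4 call held in 21 of 22 alternatives and was lost without PSC 14 (-2.00, adjusted p = 0.0698). In PBC against control the change was -1.07 (SE 0.42, 95% interval -1.96 to -0.17, adjusted p = 0.119), which was not called, and the groups overlapped. Without PBC 7 that change was -1.59 and was called (adjusted p = 0.0281). Both comparisons with control share the same 4 livers.

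None of the 10 genes was called in PBC against control, where limma called 9.94% of all models, 7.6% higher and 2.34% lower. Unadjusted, limma's test passed 0.05 for 1 gene, Apoa4, and edgeR and DESeq2 each called 0. The changes of the 10 genes in PBC ran from -1.07 to 0.53 with a median of 0.05, beside a median of 0.01 over all models tested. In PSC they ran from -0.31 to 1.37 with a median of -0.09, beside 0.06 over all models.

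**Figure D2:**
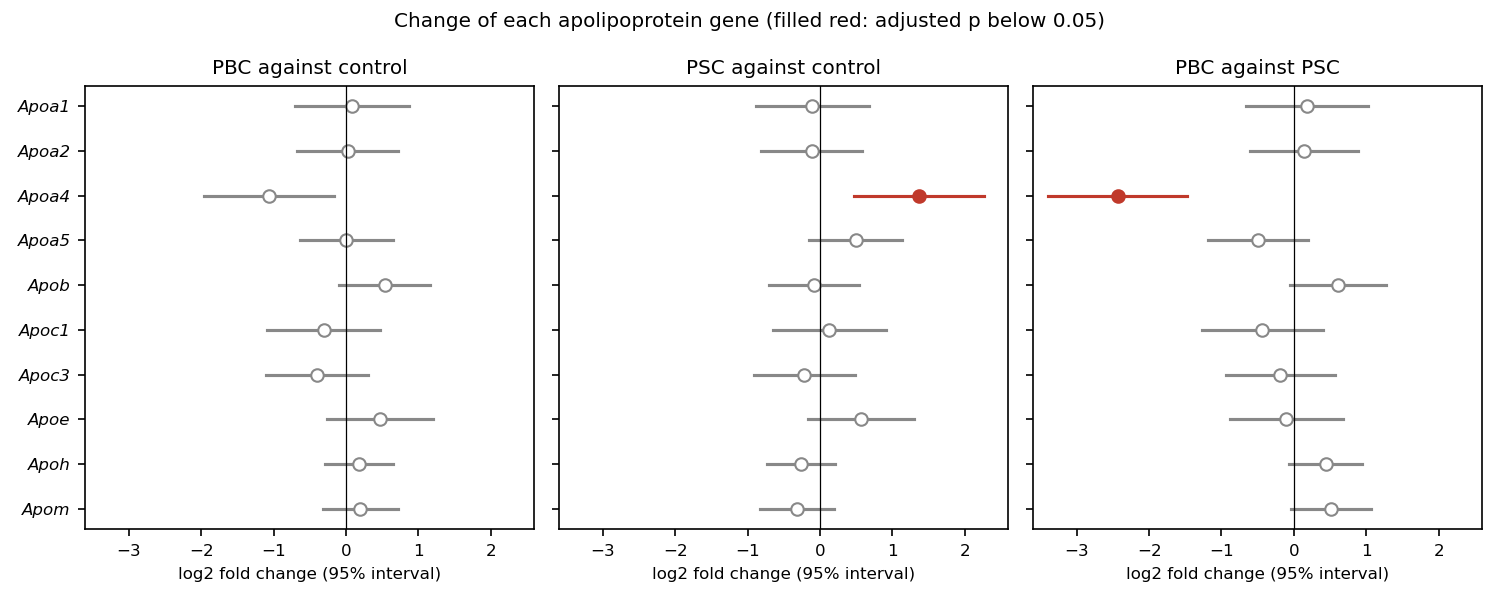
Log2 fold change of each apolipoprotein gene with its 95% interval, in PBC against control, PSC against control and PBC against PSC, filled red where the adjusted p was below 0.05. Apoa4 is the 1 gene called, at 1.37 in PSC against control and -2.44 in PBC against PSC, and every other interval includes 0 except that of Apoa4 in PBC against control (-1.96 to -0.17).

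Within the chromosome 9 cluster, Apoa4 was the 1 gene called. Its share of the reads of the 4 cluster genes was 0.834% ± 0.371 in PBC, 4.47% ± 1.59 in PSC and 1.70% ± 0.57 in control (SD, n = 3, 3 and 4). The PSC shares, 3.03% to 6.18%, lay above every PBC share (0.596% to 1.26%) and every control share (0.986% to 2.32%). Across the 10 libraries the highest Apoa4 value was 17.8 times the lowest, whereas the same ratio was 2.11 for Apoa1, 3.20 for Apoc3 and 2.52 for Apoa5. Unnamed models overlap Apoa4 in the table, and none of them exceeded 80.5 normalised reads.

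Intestinal epithelium is the other site of Apoa4 expression, and its markers were examined in the same livers. Of 8 enterocyte markers, Sis, Alpi and Cdx1 were at 0 in every library, and Cdx2 and Reg3g were below 10 in every library. Nearly all of the list's level came from Fabp2, the intestinal fatty acid binding protein gene, and the list summed to 4.77 to 11.5 k normalised reads in PBC, 14.9 to 28.1 k in PSC and 12.9 to 27.0 k in control. Fabp2 had 11.1, 4.56 and 6.16 k normalised reads in PBC 7, 8 and 9, 14.6, 25.8 and 27.6 k in PSC 11, 13 and 14, and 12.4, 13.3, 26.4 and 14.9 k in controls 1 to 4. All 3 PBC livers lay below every other liver. Fabp2 was lower in PBC than in PSC by 1.69 on the log2 scale (adjusted p = 0.0286, limma; groups not overlapping), and lower than in control by 1.23 (adjusted p = 0.0365). In PSC against control its change was 0.45 (SE 0.34, adjusted p = 0.397), and it was not called. The part of Fabp2-expressing cells in the Apoa4 result was not tested.

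The 3 named genes whose profile over the 10 libraries lay nearest to that of Apoa4, among 12109 compared, were Fxyd3, Gm5148 and the merged adult beta-globin model Hbb-bs // Hbb-b1. Likeness was the root-mean-square difference of centred log2 profiles, 0.54 for Fxyd3, 0.57 for Gm5148 and 0.60 for the globin model, while the Apoa4 profile itself had a root mean square of 1.11. Fxyd3, a regulator of the sodium pump, averaged 131 ± 50.4 normalised reads in PBC, 575 ± 153 in PSC and 192 ± 52.0 in control. Gm5148 averaged 37.3 ± 17.8 normalised reads in PBC, 151 ± 15.8 in PSC and 107 ± 43.0 in control. The globin model, a marker of red blood cells, averaged 38.6 ± 14.8 k in PBC, 146 ± 112 k in PSC and 62.9 ± 27.2 k in control. These genes were picked for their likeness, so their values are a description.

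**Figure D3:**
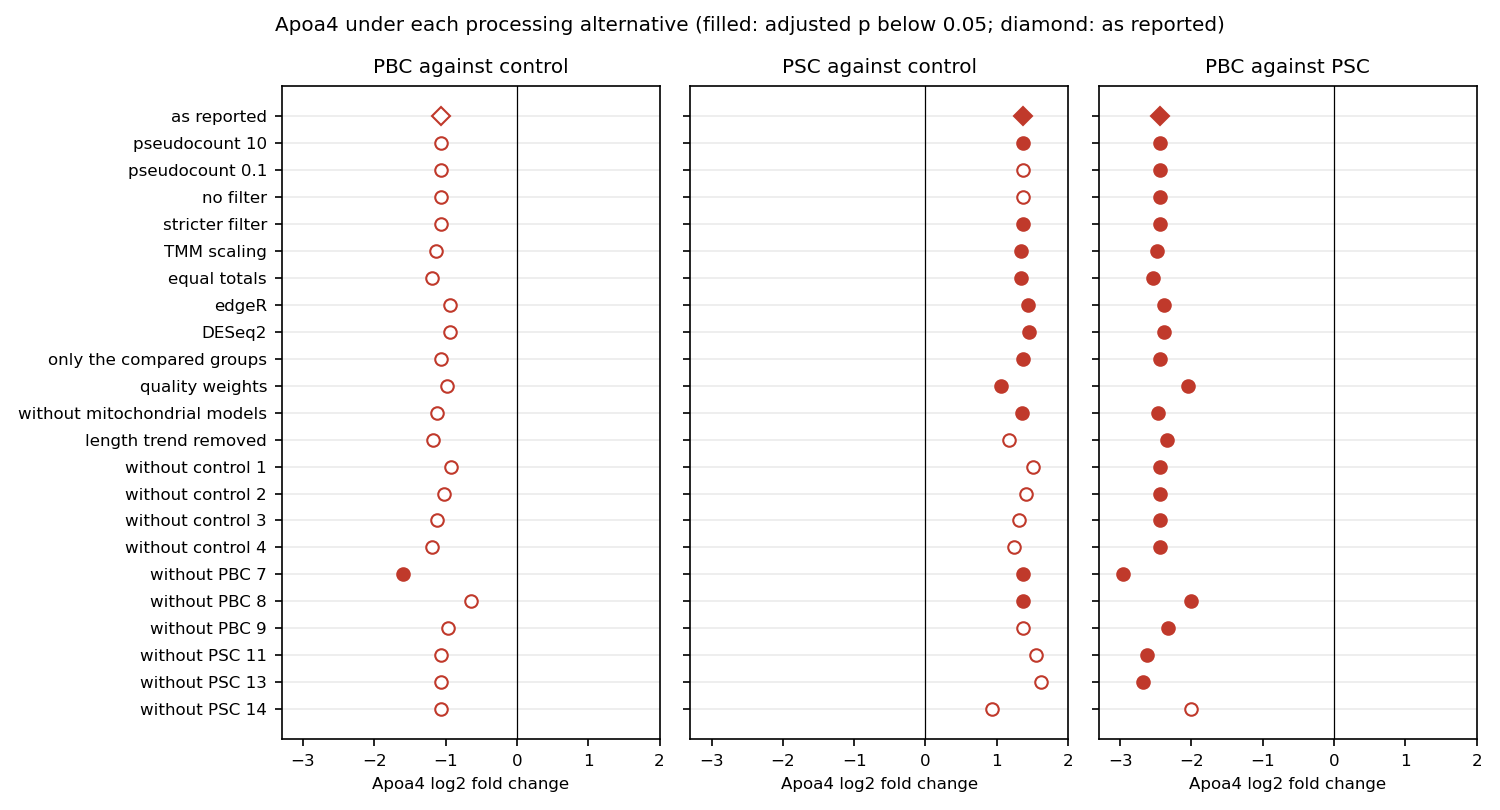
Log2 fold change of Apoa4 as reported (diamond) and under 22 processing alternatives (circles), 12 of method and 10 that leave out 1 library, filled where the adjusted p was below 0.05. The sign is the same at every point of a panel, while the PSC against control call is absent in 11 of 22 alternatives and the PBC against PSC call in 1.

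Apoa1, Apoa2 and Apom, which encode HDL proteins, were not called in any comparison. Apoa1 encodes the main HDL protein, which activates the enzyme LCAT. Its level was 1.72 ± 0.55 M normalised reads in PBC, 1.49 ± 0.38 M in PSC and 1.62 ± 0.51 M in control (SD, n = 3, 3 and 4). It ranged from 1.12 to 2.20 M in PBC, from 1.15 to 1.90 M in PSC and from 1.19 to 2.36 M in control, so all 3 groups overlapped. The change was 0.08 in PBC against control (95% interval -0.71 to 0.86) and -0.10 in PSC against control (-0.89 to 0.68), which leaves room for changes of close to 2-fold in either direction. Apoa2, the second HDL protein, had 1.15 ± 0.41 M in PBC, 1.01 ± 0.19 M in PSC and 1.08 ± 0.16 M in control, with adjusted p of 0.974 and 0.844 against control.

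Apom encodes apolipoprotein M, the HDL carrier of sphingosine 1-phosphate. It had 75.6, 39.4 and 66.2 k normalised reads in PBC 7, 8 and 9, 38.2, 38.5 and 45.9 k in PSC 11, 13 and 14, and 54.6, 46.5, 60.2 and 43.0 k in controls 1 to 4. PBC 8 lay with the PSC livers, while the other PBC livers were the highest of all. The change was 0.52 in PBC against PSC (SE 0.26, adjusted p = 0.297), 0.20 in PBC against control (adjusted p = 0.637) and -0.31 in PSC against control (adjusted p = 0.405).

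Apob and Apoe encode the ligands through which remnants are taken up by hepatocyte receptors, and Apob is also the scaffold of very low density lipoprotein. Apob had 25.4, 18.4 and 14.3 k normalised reads in PBC 7, 8 and 9, 13.6, 13.3 and 10.3 k in PSC 11, 13 and 14, and 14.5, 19.8, 13.0 and 7.70 k in controls 1 to 4. Every PBC liver lay above every PSC liver, and the range of the controls took in every PSC liver and every PBC liver but PBC 7. The change was 0.61 in PBC against PSC (SE 0.31, adjusted p = 0.308) and 0.53 in PBC against control (SE 0.29, adjusted p = 0.263), and neither was called.

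Apoe, a remnant ligand that liver macrophages also make, had 2.64, 1.74 and 3.29 M normalised reads in PBC 7, 8 and 9. It had 2.30, 2.74 and 2.97 M in PSC 11, 13 and 14, and 1.65, 1.59, 1.71 and 2.28 M in controls 1 to 4. All PSC livers lay above all controls, though PSC 11 exceeded control 4 only narrowly, and PBC 8 lay among the controls. The change was 0.57 in PSC against control (SE 0.34, 95% interval -0.16 to 1.30, adjusted p = 0.284) and 0.47 in PBC against control (SE 0.34, adjusted p = 0.417). PSC and control livers did not overlap for Apoe and Apoa4, and PBC and PSC livers did not for Apoa4, Apob and Apoh. The share of all models without overlap was not computed, so this separation is a description only. Of the reads of all 10 genes, Apoe held 35.6% ± 2.31 in PBC, 36.6% ± 1.24 in PSC and 27.9% ± 6.67 in control.

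Macrophage markers moved with the groups. Of 13 macrophage and Kupffer cell markers, 12 rose in PBC and 7 rose in PSC against control, and the list summed to 199 to 284 k normalised reads in PBC, 153 to 197 k in PSC and 57.9 to 94.5 k in control, with none at 0. Its part in the Apoe level was not tested. An unnamed model spans the whole of Apoe and had at most 4274 normalised reads in any library, a level far below that of Apoe.

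Apoc3, Apoc1 and Apoa5 encode regulators of triglyceride removal. The product of Apoc3 restrains lipoprotein lipase and remnant uptake, that of Apoc1 also slows remnant clearance, and that of Apoa5 promotes lipolysis. Apoc3 had 331 ± 112 k normalised reads in PBC, 364 ± 58.9 k in PSC and 436 ± 151 k in control, and Apoc1 had 0.943 ± 0.257 M in PBC, 1.25 ± 0.19 M in PSC and 1.21 ± 0.56 M in control. For both genes control 3 was the highest of the 10 livers (651 k and 2.03 M) and PBC 8 the lowest (203 and 647 k). Neither was called in any comparison (adjusted p of 0.465 to 0.844).

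Apoa5 had 126, 118 and 207 k normalised reads in PBC 7, 8 and 9, 154, 246 and 224 k in PSC 11, 13 and 14, and 97.8, 149, 148 and 205 k in controls 1 to 4. The 2 highest livers were PSC 13 and 14, and the groups overlapped. The change was 0.49 in PSC against control (SE 0.30, adjusted p = 0.292), 0.00 in PBC against control (SE 0.30) and -0.49 in PBC against PSC (SE 0.32, adjusted p = 0.421).

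Apoh encodes beta-2-glycoprotein I, a phospholipid-binding plasma protein. It was the steadiest of the 10, its highest library only 1.67 times its lowest. It had 245, 199 and 271 k normalised reads in PBC 7, 8 and 9, 162, 178 and 183 k in PSC 11, 13 and 14, and 220, 226, 174 and 219 k in controls 1 to 4. The 3 PBC livers lay above the 3 PSC livers, and control 3 lay with PSC. The change was 0.44 in PBC against PSC (SE 0.23, 95% interval -0.06 to 0.94, adjusted p = 0.326), and it was not called.

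In some libraries most of the 10 genes deviated from their group mean in the same direction. In PBC 8 all 10 lay below their PBC mean on the log2 scale, by a median of 0.53, with deviations from -0.85 (Apoa4) to -0.04 (Apob). In PSC 11, 9 of 10 lay below their group mean, and in PBC 7 and PSC 14, 9 of 10 lay above. In controls 1 to 4 the split was mixed, with 5, 6, 4 and 7 of 10 below. Transcript length also differed between libraries. Over the tested genes with a length, the 802 with transcripts under 1000 bases minus the 1533 over 6000 bases had a median log2 deviation of -1.12 in PBC 8, while the other 9 libraries ran from -0.75 in control 2 to 0.81 in PSC 14. This measure was 0.07 and 0.25 in PBC 7 and 9, where the median deviation of the 10 genes was 0.30 and 0.23. In PSC 11, 13 and 14 it was 0.21, 0.55 and 0.81, and the median deviation was -0.25, 0.07 and 0.15. In controls 1 to 4 it was -0.33, -0.75, 0.47 and -0.38, and the median deviation was -0.01, -0.11, 0.14 and -0.29. Deviations of the 10 genes are from the mean of the library's group. Those of the length classes are from the mean over all 10 libraries, so the signs of the 2 cannot be compared directly. The part of transcript length in the gene deviations was not tested. When each library's length trend was subtracted, an alternative chosen after seeing the data, the Apoa4 change was 1.17 in PSC against control (adjusted p = 0.0530) and -2.35 in PBC against PSC (adjusted p = 0.00945). Under that alternative Apoc3 (-0.68, adjusted p = 0.0107) and Apom (-0.66, adjusted p = 0.0108) were called lower in PSC than in control, and Apom was called higher in PBC than in PSC (0.78, adjusted p = 0.0227).

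**Figure D4:**
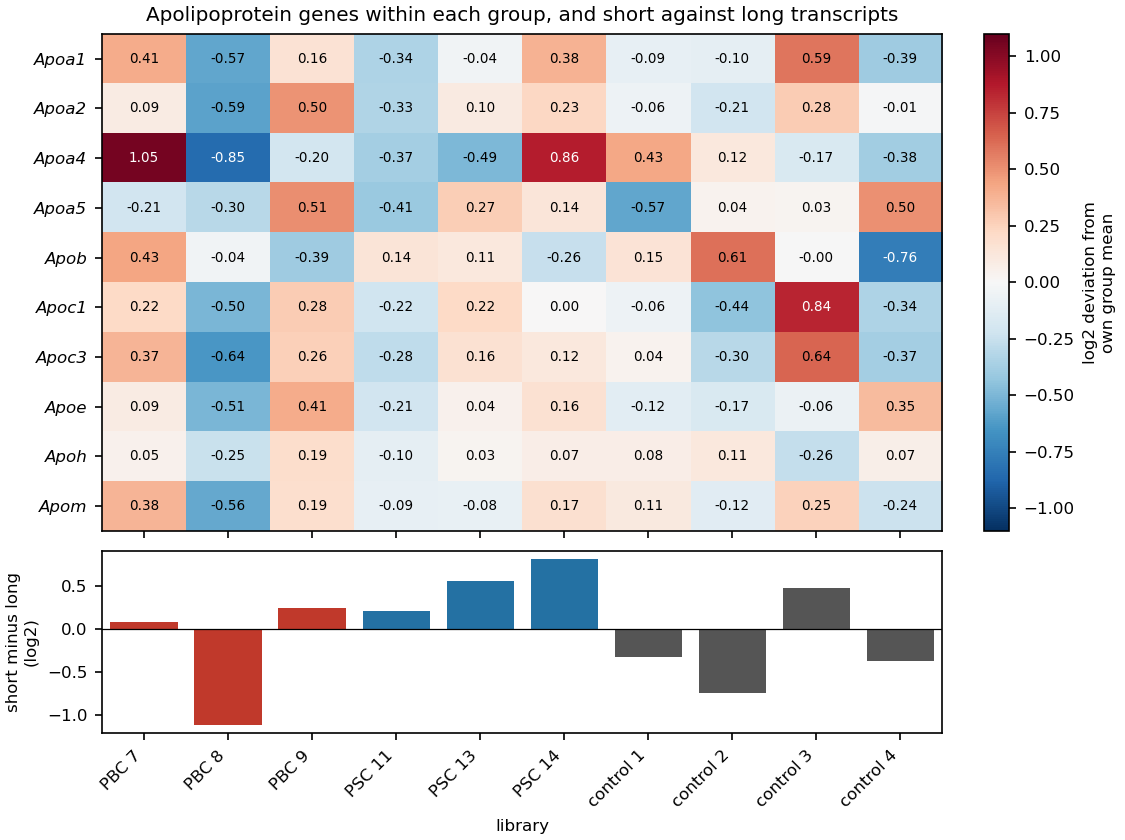
Upper panel, log2 deviation of each apolipoprotein gene from the mean of its own group in each library (blue below, red above, value printed). Lower panel, median log2 deviation of transcripts under 1000 bases minus that of transcripts over 6000 bases in the same libraries, with the lowest value, -1.12, in PBC 8, where all 10 genes lay below their group mean.

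The other genes of lipoprotein metabolism were read from 7 lists with 70 genes, which gave 66 tested models. In PBC against control 12 rose and 2 fell (18.2% and 3.03% of the models), beside 7.6% and 2.34% of all models tested. In PSC against control 11 rose and 11 fell (16.7% each), beside 8.25% and 6.48%. In PBC against PSC 2 were higher (3.03%) and 0 lower, beside 1.11% and 1.13% of all models tested. Of the 38 calls that fell under the rule for named genes, 13 held in all 22 alternatives and 25 were lost in at least 1.

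Among other apolipoproteins, Clu, which encodes clusterin (apolipoprotein J, a secreted chaperone), rose in both models. Clu had 127 ± 42.0 k normalised reads in PBC, 208 ± 37.5 k in PSC and 57.5 ± 17.6 k in control, a change of 1.15 in PBC (SE 0.29, adjusted p = 0.0272) and 1.89 in PSC (SE 0.29, adjusted p = 0.00131). Apon rose in PBC (0.78, adjusted p = 0.0489), with 35.5 ± 4.88 k, against 20.95 ± 5.04 k in control. Apof, which in humans encodes an inhibitor of lipid transfer, and the merged Apoc2 and Apoc4 model, which holds the lipoprotein lipase activator, were not called in either model. Apod, at 7.5 normalised reads or less, was not tested. The 2 rises in PBC were the less stable. Clu in PBC lost its call without controls 1 or 3, PBC 7 or PBC 9, with no filter and with only the compared groups (0.90 to 1.36 over all alternatives, adjusted p up to 0.139). Apon lost it in 16 of 22 alternatives, among them those without controls 1, 2 or 3, PBC 7, PBC 9 or any PSC liver (0.61 to 0.90, adjusted p up to 0.182). With the transcript length trend removed, the Apon call was lost too.

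Of the 10 genes of particle assembly and secretion, 1 rose and 2 fell in each model. A1cf, the RNA-binding partner of the enzyme that edits the Apob message, fell in PSC by 1.98 (SE 0.36, adjusted p = 0.00343), to 585 ± 119 normalised reads, against 2308 ± 376 in control. In PBC it fell by 1.27 (SE 0.36, adjusted p = 0.0410), with 751, 2070 and 542 normalised reads in PBC 7, 8 and 9, so that PBC 8 lay within the controls. Mttp, the microsomal transfer protein that loads lipid onto apolipoprotein B, fell in PSC by 0.63 (SE 0.19, adjusted p = 0.0428), to 6.66 ± 0.45 k, against 10.4 ± 1.88 k in control. Sar1b, a GTPase of the vesicles that carry such particles out of the endoplasmic reticulum, fell in PBC by 0.79 (SE 0.21, adjusted p = 0.0345). Pdia3, an endoplasmic reticulum disulfide isomerase, rose by 0.64 in PBC (adjusted p = 0.0475) and 0.66 in PSC (adjusted p = 0.0331).

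In this list the A1cf fall in PSC held in all 22 alternatives. The A1cf fall in PBC was lost in 11 of 22, among them without controls 1, 2 or 4, PBC 7, PBC 9 or any PSC liver (-1.84 to -0.87, adjusted p up to 0.197). The Mttp fall was lost without controls 2 or 4, PBC 7 or any PSC liver, with no filter and with equal totals (-0.74 to -0.42, adjusted p up to 0.155). That of Sar1b was lost without controls 3 or 4, PBC 8, PBC 9 or any PSC liver, with no filter and with only the compared groups (-0.92 to -0.55, adjusted p up to 0.138). The Pdia3 rise was lost in 14 alternatives in PBC, among them without controls 1, 3 or 4, PBC 7, PBC 9 or any PSC liver (0.51 to 0.74, adjusted p up to 0.142), and without controls 1 or 4, PSC 11 or PSC 14 and with no filter in PSC (0.59 to 0.78, adjusted p up to 0.148).

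Of 10 genes of lipolysis and remodelling, Lpl stood out. Lpl encodes lipoprotein lipase, which is low in adult hepatocytes and is made in liver by macrophages among others. It had 2.23, 4.61 and 2.47 k normalised reads in PBC 7, 8 and 9, 7.06, 4.56 and 5.45 k in PSC 11, 13 and 14, and 0.908, 0.478, 0.909 and 0.700 k in controls 1 to 4. Every cholangitis liver lay above every control. Lpl rose by 2.02 in PBC (SE 0.29, adjusted p = 0.000949) and 2.95 in PSC (SE 0.29, adjusted p = 4.13e-05), and both calls held in all 22 alternatives. Of 13 macrophage and Kupffer cell markers, 12 rose in PBC and 7 in PSC. Their sum was higher in PBC (199 to 284 k) than in PSC (153 to 197 k). Lpl averaged 3.10 ± 1.31 k in PBC and 5.69 ± 1.26 k in PSC, a difference that was not called (adjusted p = 0.141, limma). The part of macrophages in the Lpl level was not tested. Lipg, endothelial lipase, which acts on HDL, fell in PSC by 1.27 (SE 0.38, adjusted p = 0.0416), a call lost without any 1 control or PSC liver, with no filter, equal totals and edgeR (-1.39 to -1.08, adjusted p up to 0.153). Lipc and Lcat, the hepatic lipase and the cholesterol-esterifying enzyme of HDL, were not called.

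Of 11 tested receptor genes and their regulators, 2 rose in PBC, and 4 rose and 1 fell in PSC. Lrp1, a large remnant receptor, rose by 1.68 in PBC (SE 0.36, adjusted p = 0.0111) and 1.43 in PSC (SE 0.36, adjusted p = 0.0195). Stab1, a scavenger receptor of sinusoidal endothelium and macrophages, rose by 0.78 in PBC (adjusted p = 0.0279) and 0.86 in PSC (adjusted p = 0.0126). Scarb1, the HDL receptor that takes up cholesteryl ester, rose in PSC by 1.02 (SE 0.19, adjusted p = 0.00383), to 31.6 ± 3.08 k normalised reads, against 15.7 ± 2.96 k in control. Cd36, a fatty acid and oxidised lipoprotein receptor, rose in PSC by 1.54 (SE 0.34, adjusted p = 0.0105), to 14.2 ± 1.12 k, against 5.54 ± 3.67 k in control.

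Scarb1 and Cd36 in PSC against control held in all 22 alternatives. Lrp1 lost its call in PBC without PBC 7 or PBC 9 (1.36 to 2.09, adjusted p up to 0.0632) and in PSC without any 1 PSC liver (1.11 to 1.92, adjusted p up to 0.0728). Stab1 lost it in PBC in 6 alternatives, among them without controls 1 or 4, PBC 7 or PBC 9 (0.65 to 1.03, adjusted p up to 0.136), and in PSC without PSC 11 or PSC 14 (0.77 to 1.30, adjusted p up to 0.0779). With the transcript length trend removed, the Stab1 call in PBC was lost too.

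Of 6 lipid exporters, 2 rose in PBC, and 1 rose and 1 fell in PSC. Abca1, which loads cholesterol onto apolipoprotein A-I, fell in PSC by 1.45 (SE 0.37, adjusted p = 0.0206). It had 2.02, 3.52 and 0.851 k normalised reads in PBC 7, 8 and 9, 0.881, 0.881 and 0.684 k in PSC 11, 13 and 14, and 1.97, 3.12, 2.06 and 1.88 k in controls 1 to 4. The PSC livers lay below all controls, and the PBC livers spanned both. Abcg8, part of the sterol exporter into bile, was higher in PBC than in PSC by 1.34 (SE 0.22, adjusted p = 0.00669), with 7.36 ± 0.86 k in PBC, 2.90 ± 0.08 k in PSC and 4.31 ± 1.04 k in control, and it rose in PBC against control by 0.80 (SE 0.20, adjusted p = 0.0272). The lysosomal cholesterol transporter gene Npc1 rose in PBC by 0.65 (adjusted p = 0.0329), and its partner Npc2 rose in PSC by 0.76 (adjusted p = 0.0392).

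Abcg8 in PBC against PSC held in all 22 alternatives. Abca1 lost its call without control 2 or any 1 PSC liver (-1.52 to -0.98, adjusted p up to 0.0991). Abcg8 in PBC against control lost it without controls 1 or 4, PBC 7 or PBC 9, with equal totals and with only the compared groups (0.64 to 1.11, adjusted p up to 0.124). Npc1 lost it in 10 alternatives, among them without controls 1, 2 or 4, PBC 7, PBC 9, PSC 13 or PSC 14 (0.52 to 0.81, adjusted p up to 0.139). With the transcript length trend removed, Npc1 lost its call too. Npc2 lost it without controls 1, 2 or 4 or any PSC liver and with no filter (0.61 to 0.91, adjusted p up to 0.177).

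The other HDL proteins gave the largest changes of the 7 lists. Serum amyloid A, the acute phase protein that associates with HDL, is encoded by Saa1 and Saa2, which are alike enough that reads could be shared, so their separate values are uncertain. Saa1 had 48.6, 27.6 and 72.2 k normalised reads in PBC 7, 8 and 9, 225, 60.1 and 198 k in PSC 11, 13 and 14, and 2.79, 1.502, 4.45 and 1.66 k in controls 1 to 4. Every cholangitis liver exceeded every control many times over, and PSC 13 lay within the PBC range. Saa1 rose by 4.28 in PBC (SE 0.48) and 5.88 in PSC (SE 0.48), and Saa2 rose by 4.79 in PBC and 6.25 in PSC (adjusted p of 0.000198 or less for all 4, limma). Saa4, the constitutive form, rose by 1.27 in PBC (SE 0.20, adjusted p = 0.00201) and 0.65 in PSC (SE 0.20, adjusted p = 0.0469). Pon1, the HDL-bound paraoxonase, fell in PSC by 0.65 (SE 0.19, adjusted p = 0.0382), to 75.2 ± 7.03 k normalised reads, against 118.7 ± 13.6 k in control. Saa1 and Saa2 in both models, and Saa4 in PBC, held in all 22 alternatives. Saa4 in PSC lost its call in 12, among them without controls 1, 2 or 3, PBC 7 or any PSC liver (0.51 to 0.77, adjusted p up to 0.220), and Pon1 without controls 1, 2 or 4, PBC 7 or any PSC liver and with no filter (-0.91 to -0.58, adjusted p up to 0.135).

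Of 20 transcription regulators of this pathway, 5 fell and 0 rose in PSC, and 1 rose and 0 fell in PBC. Their median change was -0.48 in PSC and -0.26 in PBC, beside 0.06 and 0.01 over all models tested. These medians were not matched for transcript length. Transcripts over 6000 bases had a median log2 deviation of -0.17, -0.24 and -0.42 in PSC 11, 13 and 14. It was 0.09, 0.60 and -0.10 in PBC 7, 8 and 9, and 0.16, 0.32, -0.11 and 0.13 in controls 1 to 4. The part of transcript length in the regulator medians was not tested. Hnf4a, a nuclear receptor that drives hepatocyte genes including several apolipoproteins, fell in PSC by 0.91 (SE 0.29, adjusted p = 0.0488), to 4.33 ± 0.81 k normalised reads, against 8.18 ± 1.82 k in control. Ppargc1a, a coactivator of fasting metabolism, fell by 1.38 (adjusted p = 0.0413), Rora, which encodes an orphan receptor, by 1.76 (adjusted p = 0.0261), Nr5a2, a receptor of bile acid and HDL genes, by 1.16 (adjusted p = 0.0370), and Srebf2, the regulator of cholesterol synthesis, by 0.69 (adjusted p = 0.0497). In PBC Nr1d1, a clock repressor that represses Apoc3 in mice, rose by 1.60 (SE 0.41, adjusted p = 0.0264). The hour of collection is unknown from the sources used here, and its part was not tested. Creb3l3, which encodes a liver factor that induces Apoa4 in mice, changed by 0.18 in PSC (SE 0.19, adjusted p = 0.581) and by -0.34 in PBC (SE 0.19, adjusted p = 0.281) against control. In PBC against PSC its change was -0.52 (SE 0.21, adjusted p = 0.204). None of these 3 changes was called. The highest PBC liver (11.2 k normalised reads) lay only narrowly below the lowest PSC and control livers (both 11.4 k). The share of all models so separated was not computed, so this is a description only. The part of Creb3l3 in the Apoa4 level was not tested.

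None of these regulator calls held in all alternatives. Hnf4a lost its call in 12, among them without controls 1, 2 or 4, PBC 9 or any PSC liver (-1.06 to -0.69, adjusted p up to 0.174), and Srebf2 in 14, among them without controls 1, 2 or 4, PBC 7, PBC 9 or any PSC liver (-0.94 to -0.39, adjusted p up to 0.206). Ppargc1a lost it in 9, among them without controls 1, 3 or 4 or any PSC liver (-1.59 to -0.98, adjusted p up to 0.156). Rora lost it without controls 1 or 2 or any PSC liver and with equal totals (-2.00 to -1.58, adjusted p up to 0.119). Nr5a2 lost it without controls 1, 2 or 4 or any PSC liver and with equal totals (-1.35 to -0.94, adjusted p up to 0.175). Nr1d1 lost it without control 1, PBC 7 or PBC 9 and with equal totals (1.24 to 1.93, adjusted p up to 0.0970). Ppargc1a and Srebf2 also lost their calls with the transcript length trend removed.

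**Figure D5:**
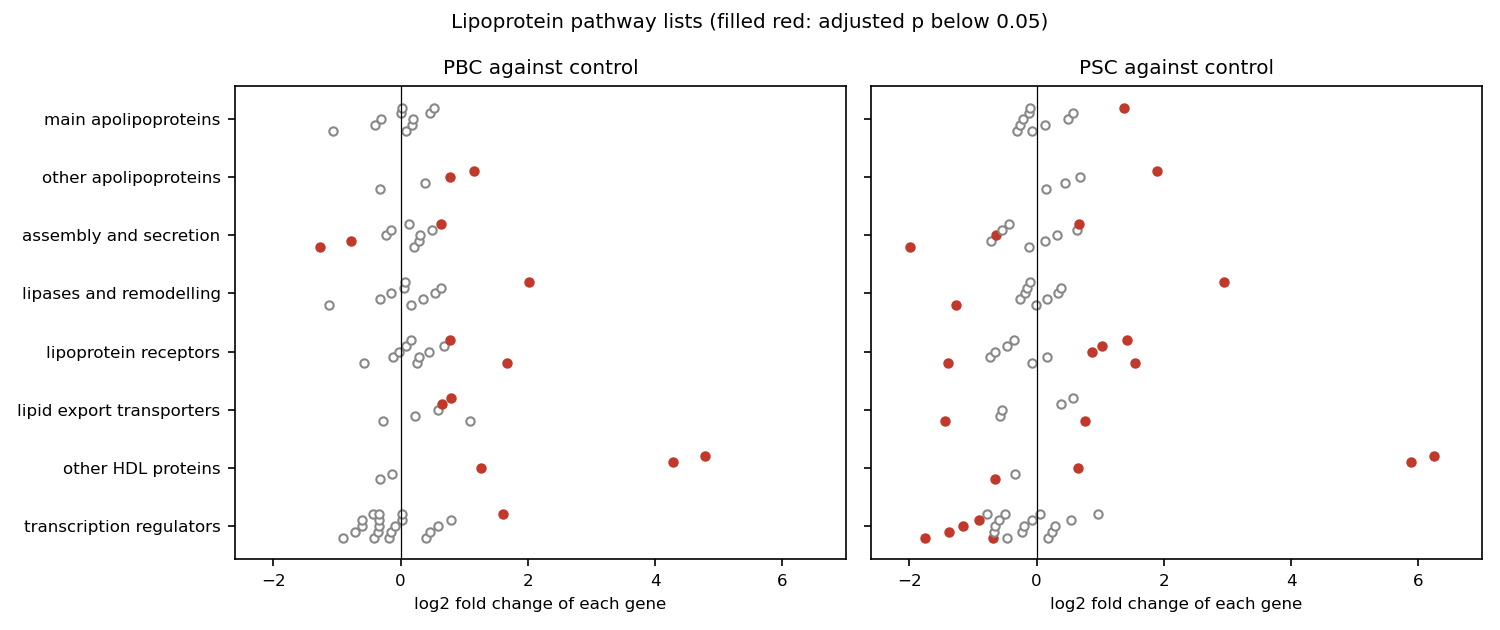
Log2 fold change of each tested gene of the lipoprotein pathway by list, in PBC against control and PSC against control, filled red where the adjusted p was below 0.05. The 10 apolipoprotein genes described here are on top, labelled main apolipoproteins. Saa1 and Saa2 lie farthest to the right (4.28 and 4.79 in PBC, 5.88 and 6.25 in PSC), while the 10 apolipoprotein genes lie between -1.07 and 1.37.

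Markers of further cell types moved with the models beside these lists. Of 8 cholangiocyte markers, 3 rose in PBC and 7 in PSC, with summed levels of 10.1 to 13.7 k normalised reads in PBC, 54.3 to 94.99 k in PSC and 7.71 to 13.3 k in control. Of 8 stellate cell and fibroblast markers, 2 rose in PBC and 4 in PSC, with sums of 14.7 to 28.2 k in PBC, 44.9 to 49.5 k in PSC and 13.6 to 21.8 k in control. Of 9 hepatocyte markers, 2 rose in PBC and 1, Hnf4a, fell in PSC. Of 6 T and B cell markers, 4 rose in PBC and 2 fell in PSC against control, and 5 were higher in PBC than in PSC, with sums of 1.93 to 2.14 k in PBC, 0.292 to 0.381 k in PSC and 0.453 to 0.710 k in control. No marker of these 4 lists was at 0 in every library, and the part of cell composition in the levels of the apolipoprotein genes was not tested.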

How the data were processed

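Livers of 10 mice (PBC 3, PSC 3, control 4, each library named by its mouse number) were sequenced from stranded poly(A) libraries, per the labels' protocols. Per the submitters' processing notes, STAR 2.4.0, the mm10 build, FastQC, Picard, SAMtools and DESeq2 were used. The sources used here name no counting tool and no strand setting. The authors deposited a signal per gene model, namely read numbers that they normalised with DESeq2. Whole reads were recovered in each library (100% of values up to 1000 reads whole, tolerance 0.1). Larger values, those of the 10 genes among them, were rounded to whole reads without this check. Values were tested with limma 3.58.1 (R 4.3.3, with its trend option) on log2(value + 1) in 1 fit of all 10 libraries, a value of at least 10 required in at least 3 libraries, and Benjamini-Hochberg adjustment over 18390 models. The pseudocount understates changes of low genes only. edgeR 4.0.16 and DESeq2 1.42.0 on recovered reads, other pseudocounts, filters and scalings, quality weights and leaving out each library were alternatives. Removing mitochondrial models or the length trend was added after seeing the data. The script was tested on simulated data. Lengths are of the longest principal transcript of GENCODE M21, and promoters are from RefSeq. The spread that p-values measure is that between mice. The 10 genes and the lists were chosen with earlier results of these data known. Named were all 10 genes, up to 4 called genes per list with the smallest adjusted p and those against its majority, called regulators, and the 3 nearest profiles of Apoa4. Fabp2, further markers, and Apof, Apoc2, Apoc4, Apod, Lipc, Lcat and Creb3l3 were named outside that rule after their values were seen. Some genes that the rule names are counted in their lists but not reported here.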

Additional observations from a re-analysis of the deposited data

Results flagged for a closer look

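Among 40 sets of 4 control values examined, for the 10 apolipoprotein genes, 27 named genes of the pathway lists and the 3 nearest profiles of Apoa4, 3 held a liver far from the other controls, where chance gives about 1 in 20. Apoh in control 3 was 174350 normalised reads, below 218840 to 225910 in the other controls. Abca1 in control 2 was 3118 normalised reads, above 1883 to 2056 in the others. Cd36 in control 4 was 11033 normalised reads, above 3603 to 3873 in the others.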

How the results depend on the processing

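No paired analysis was possible because the groups share no mouse numbers. The number of the 10 apolipoprotein genes called in PSC against control, 1 as reported, was 0 with a pseudocount of 0.1 and with no filter, 3 with quality weights (Apoa4, Apoa5 at 0.93 with adjusted p = 0.00659, and Apoe at 0.67 with adjusted p = 0.0330), and 2 with the length trend removed (Apoc3 and Apom, without Apoa4). In PBC against PSC, 1 as reported, it was 2 with quality weights (Apoa4 and Apom, 0.71 with adjusted p = 0.0433) and 2 with the length trend removed. With 1 library left out it was 0 to 1 in all 3 comparisons. The cause was not tested. Apoa4 ran from -1.59 to -0.64 in PBC against control, from 0.94 to 1.61 in PSC against control and from -2.96 to -2.00 in PBC against PSC with 1 library left out. Of 594 values of the other 9 genes under alternatives, 6 were called, and 37 that were not called had a changed sign. Over all models, called counts ran under all alternatives from 673 to 2425 higher and 63 to 1803 lower in PBC against control (1398 and 430 as reported), from 680 to 3899 and 245 to 3404 in PSC against control (1518 and 1192), and from 61 to 658 and 43 to 701 in PBC against PSC (204 and 208). Equal totals moved the median of all models by -0.13 in PBC against control. With 3 or 4 livers a group, intervals of these genes mostly span changes beyond 1.5-fold.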
